A study of Mus musculus with 8 samples.

Results

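Collagen genes were followed across 8 RNA-sequencing libraries of epithelial cells sorted by FACS (fluorescence-activated cell sorting) from mouse skin epidermis. The 42 genes are all rows of the deposited table, out of 32574 genes, whose symbol reads Col, a number, the letter a and a number with nothing after, from Col1a1 to Col28a1. The libraries fall into 4 groups of 2. K14 control and Lrig1 control are labelled WT, and K14 ablation and Lrig1 ablation carry a genotype labelled basal lineage ablation. The series asks about clonal expansion and tissue fluidity during wound repair and states that basal epidermal cells were isolated. The sources used here do not say if K14 and Lrig1 stand for a Cre driver, a sorted population or the lineage that was ablated. Strain, age, sex, the ablating agent, the time after ablation and the number of animals behind each library are likewise not given. P-values therefore measure only the spread between these libraries, which may be technical.

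Collagens are secreted or membrane-spanning proteins of alpha chains wound into a rope-like helix. In skin, basal keratinocytes hold to the basement membrane through hemidesmosomes, which contain collagen XVII, and the basement membrane is tied to the dermis by anchoring fibrils of collagen VII. Type IV collagen forms the sheet of the basement membrane itself, and fibroblasts of the dermis make most of the fibrillar collagens I, III and V and the beaded filaments of collagen VI.

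The members were read as 4 lists. The epithelial list holds Col17a1, Col7a1, Col4a5 and Col4a6. The list of basement membrane collagens made by both epithelial and vascular cells holds Col4a1, Col4a2, Col15a1 and Col18a1. The fibroblast list holds Col1a1, Col1a2, Col3a1, Col5a1, Col5a2, Col6a1, Col6a2, Col6a3, Col12a1 and Col14a1, and the other 24 genes form the last list.

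Values are normalised read counts, which are reads divided by a size factor for the library. Between 6458636 and 11654135 reads were recovered from each library, so that 3 reads, the floor used for detection, correspond to a normalised read count of 2.12 to 4.23; the floor covers counting error only. The basal keratins Krt5 and Krt14, the defining markers of the labelled cell type, were abundant everywhere, Krt14 at 28052 to 79645. The 2 libraries of each ablation group stood further apart than those of each control group: a chi-square of their reads averaged 27.7 per gene in K14 ablation and 39.5 in Lrig1 ablation, against 1.57 in K14 control and 2.58 in Lrig1 control.

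Of the 42 collagen genes, 33 were detected, meaning at least 3 reads in at least 2 libraries. All 4 epithelial, all 4 basement membrane and all 10 fibroblast collagens were detected, and 15 of the 24 others. With 1 read as the floor 39 were detected, and with 10 reads 30. Reads of at least 3 in both libraries of a group were found for 28 members in the K14 controls, 29 after K14 ablation, 31 in the Lrig1 controls and 32 after Lrig1 ablation. Detection in all 8 libraries was met by 26 members, including every epithelial collagen and 9 of 10 fibroblast collagens. The exception was Col14a1, which had fewer than 3 reads in 1 K14 ablation library.

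The 9 members that were not detected fall into a pair of sets. Col11a1, Col28a1, Col6a6, Col25a1, Col24a1 and Col6a4 reached 3 reads in 1 library each, and Col13a1, Col22a1 and Col6a5 in none. No member was at 0 in all 8 libraries. At this depth these genes did not meet the rule of 3 reads in 2 libraries, which does not show that they are absent. By structure, all 6 type IV chains were detected and 3 of the 6 type VI chains, the missing ones being Col6a4, Col6a5 and Col6a6.

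Of the 33 detected members, 30 also passed the low-value filter used for testing (at least 1e-06 of a library's total in at least 2 libraries). They are 4 epithelial, 3 basement membrane, 10 fibroblast and 13 other collagens. The 3 left out were Col15a1 at 0.985 to 5.57 normalised reads, Col9a2 at 0 to 6.43 and Col2a1 at 0 to 6.21.

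Sequences upstream of a few members are shown as a description only, and no result below rests on them. Col17a1 and Col7a1 were taken as the most abundant epithelial collagens, and Col8a1 as the member with the lowest adjusted p in Lrig1 control against K14 control. The short interval from which Col4a3 and Col4a4 are read in opposite directions was added. All sequences come from the RefSeq promoter table on GRCm38.p6, 5′ to 3′ on the strand of the named gene, with annotated exons left out. Capitals mark GGGCGG (the GC box), CCAAT and TATAAA (the TATA box) on either strand; TGANTCA (the AP-1 element) was also searched and is not in these 4 stretches. Col17a1 is chr19:47692095-47692292 on the minus strand, Col7a1 is chr9:108953336-108953585 on the plus strand, the Col4a4 side of the shared interval is chr1:82586850-82586920 on the minus strand, and Col8a1 is chr16:57754738-57754987 on the minus strand.
Col17a1: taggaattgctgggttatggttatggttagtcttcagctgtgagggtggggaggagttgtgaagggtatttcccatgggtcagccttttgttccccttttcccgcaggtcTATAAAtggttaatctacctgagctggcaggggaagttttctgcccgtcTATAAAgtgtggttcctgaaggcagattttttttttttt
Col7a1: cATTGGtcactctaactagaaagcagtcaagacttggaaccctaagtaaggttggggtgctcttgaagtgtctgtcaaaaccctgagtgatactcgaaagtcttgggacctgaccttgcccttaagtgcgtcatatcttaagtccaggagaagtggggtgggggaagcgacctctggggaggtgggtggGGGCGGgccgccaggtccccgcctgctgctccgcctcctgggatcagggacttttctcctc
Col4a4: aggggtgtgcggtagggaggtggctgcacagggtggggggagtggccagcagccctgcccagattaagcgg
Col8a1: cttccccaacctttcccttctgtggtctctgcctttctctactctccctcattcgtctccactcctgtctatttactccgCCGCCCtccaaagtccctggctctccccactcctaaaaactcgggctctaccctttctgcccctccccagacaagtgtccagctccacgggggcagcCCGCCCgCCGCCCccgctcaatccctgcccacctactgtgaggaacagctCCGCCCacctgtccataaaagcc

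The Col17a1 stretch holds 2 matches to TATAAA and none to the other motifs. The Col7a1 stretch holds 1 GGGCGG and 1 CCAAT, and the Col8a1 stretch holds 4 GGGCGG, all on the opposite strand. The 71 bases between Col4a3 and Col4a4 hold no match. The table held windows of 300 bases (250 before the start and 50 after) for 34 of the 42 members, 24 of them tested. GGGCGG was present in 16 of those 24 windows, against 35.9% of all 27025 promoters in the table. CCAAT was in 9 of 24 against 37.9%, TATAAA in 4 of 24 against 14.2%, and TGANTCA in 1 of 24 against 7.93%. Matches of different motifs overlapped in 0 of the member windows. A match is only a description of the letters. Windows of Col1a1, Col2a1, Col4a3, Col5a2, Col9a3, Col12a1, Col14a1 and Col22a1 were not used here.

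Collagen genes together took 0.215 to 0.506% of all normalised reads in a library. Col17a1 alone made up 57.1 to 72.1% of those collagen reads. The epithelial list took 70.5 to 84.9% of collagen reads and the fibroblast list 6.04 to 14.5%. Much of the fibroblast share was 1 gene: without Col12a1, a fibril-associated collagen, the fibroblast list took 0.721 and 0.879% of collagen reads in the K14 controls, 0.737 and 0.827% after K14 ablation, 5.01 and 5.22% in the Lrig1 controls and 2.36 and 6.18% after Lrig1 ablation. All 4 Lrig1 libraries were thus above all 4 K14 libraries, and the 2 Lrig1 ablation libraries lay on either side of the Lrig1 controls. Without Col12a1 the list had 283 and 354 normalised reads in the K14 controls and 955 and 1080 in the Lrig1 controls. Col5a2 alone gave 506 and 519 of the latter. The divisor also differed, with 39317 and 40319 collagen reads in the K14 controls and 19065 and 20698 in the Lrig1 controls, which raises the Lrig1 share. Counted per kilobase of exon, so that long genes do not weigh more, the fibroblast list was also read with Col12a1 included. It took 3.24% in the K14 controls, 4.37% after K14 ablation, 6.81% in the Lrig1 controls and 7.16% after Lrig1 ablation (means of 2 libraries).

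**Figure D1:**
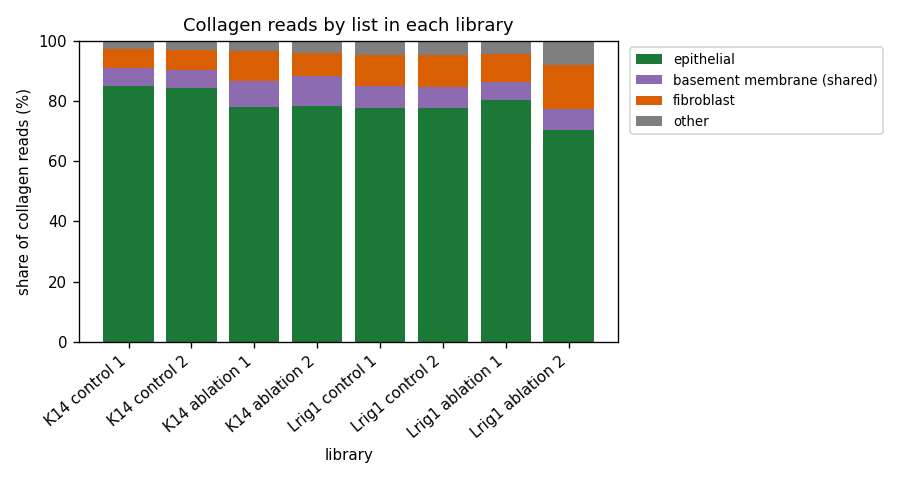
Share of collagen reads, in percent, taken by the epithelial, basement membrane, fibroblast and other collagen lists in each of the 8 libraries, stacked from 0. Epithelial collagens fill 70.5 to 84.9% of every bar, and the fibroblast band runs from 6.04 to 14.5%.

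On the per-length scale the order of the members was led by epidermal and basement membrane genes. Col17a1 (19:47646344-47692094, minus strand, in GRCm38) had a mean of 3553 normalised reads per kb over the 8 libraries and ranked first. Col18a1 followed with 286 per kb and Col7a1 with 274 per kb. These neighbours changed places between groups, with Col7a1 at 391 and Col18a1 at 304 per kb in K14 control and at 351 and 424 in K14 ablation. Col12a1 stood at 137 per kb and Col16a1, a fibril-associated collagen also made by keratinocytes, at 111 per kb. Col4a6 at 68.9 and Col4a5 at 61.9 per kb came next. The chains of the main dermal fibrils were far lower: Col1a1 had 7.10, Col3a1 3.18 and Col1a2 2.01 normalised reads per kb.

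**Figure D2:**
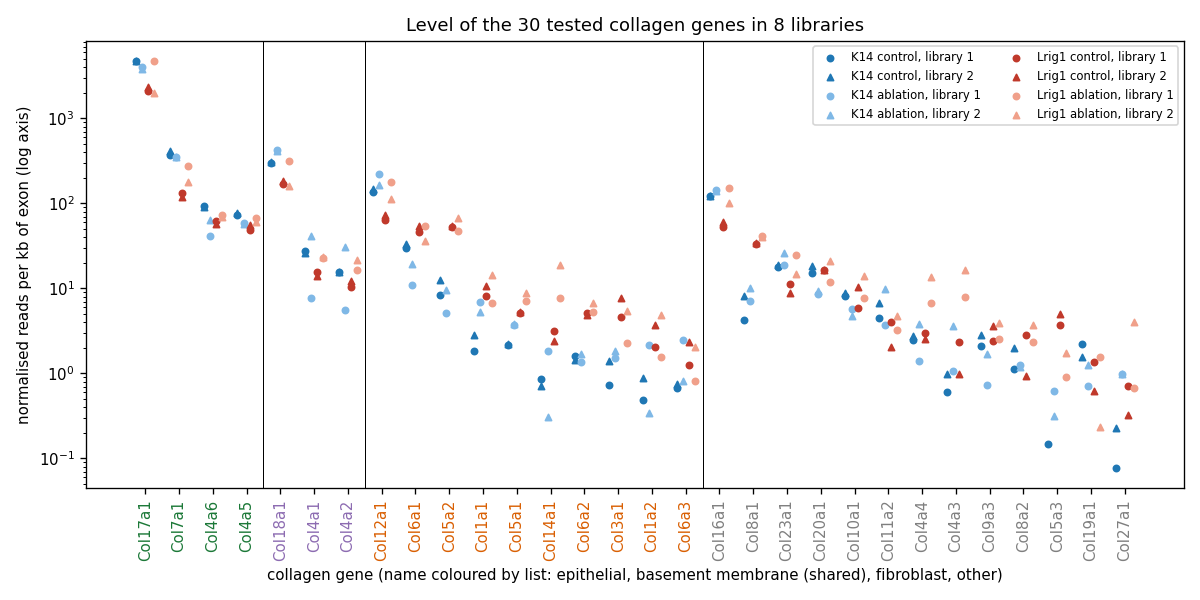
Normalised reads per kb of exon (log axis) of the 30 tested collagen genes, 1 point per library, with point colour for the group, point shape for the library and gene names coloured by list (green epithelial, purple basement membrane, orange fibroblast, grey other). A value of 0 cannot be drawn on this axis, which leaves out Col5a3 in K14 control 2; Col17a1, with a mean of 3553 per kb, lies above every other member.

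Of the epithelial collagens, Col17a1, the membrane-spanning collagen of the hemidesmosome, had 28339 and 28498 normalised reads in the K14 controls, 24281 and 23083 after K14 ablation, 12639 and 13978 in the Lrig1 controls and 28120 and 11917 after Lrig1 ablation. The Lrig1 controls lay below both K14 groups, and the 2 Lrig1 ablation libraries lay on either side of the Lrig1 controls. Col7a1 (9:108953586-108984875, plus strand), the anchoring fibril, had 3813 and 4235 in the K14 controls, 3597 and 3617 after K14 ablation, 1376 and 1238 in the Lrig1 controls and 2817 and 1830 after Lrig1 ablation. All 4 Lrig1 libraries were below all 4 K14 libraries for Col7a1, and the Lrig1 ablation libraries were above the Lrig1 controls.

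Col4a5 and Col4a6 encode type IV chains of epithelial basement membranes and lie head to head on chromosome X, 1308 bases apart. Col4a6 had 734 and 728 normalised reads in the K14 controls, 331 and 510 after K14 ablation, 489 and 462 in the Lrig1 controls and 588 and 554 after Lrig1 ablation. Col4a5 had 490 and 518 in the K14 controls, 397 and 383 after K14 ablation, 324 and 369 in the Lrig1 controls and 446 and 403 after Lrig1 ablation. For both genes the 2 K14 controls were the highest of the 8 libraries, and the Lrig1 ablation libraries lay above the Lrig1 controls. Per kb, the ratio of Col4a5 to Col4a6 stayed between 0.786 and 0.948 in 7 libraries and was 1.42 in K14 ablation 1.

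Of the basement membrane list, Col18a1, the collagen whose C-terminal fragment is endostatin, had 2101 and 2174 normalised reads in the K14 controls, 3018 and 2938 after K14 ablation, 1199 and 1298 in the Lrig1 controls and 2196 and 1129 after Lrig1 ablation. It was highest in K14 ablation, and the Lrig1 ablation libraries lay on either side of their controls. Of the 7021 exon bases of Col18a1, 2350 lie inside Slc19a1 on the opposite strand, and 0 are shared with exons of that gene. Col4a1, a main chain of type IV collagen in most basement membranes, had 206 and 196 in the K14 controls, 57.3 and 311 after K14 ablation, 115 and 106 in the Lrig1 controls and 169 and 174 after Lrig1 ablation. Col4a2, its partner chain, had 104 and 102, then 36.8 and 200, then 68.7 and 80.3, and 110 and 142 normalised reads in the same order. The 2 K14 ablation libraries were thus the lowest and the highest of all 8 for both genes. Their ratio moved far less, between 1.08 and 1.76 per kb. The genes overlap by 22 bases head to head on chromosome 8 and the sources used here give no strand setting for the counting, so a few reads cannot be told apart between them.

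Of the fibroblast list, Col12a1 had 2091 and 2275 normalised reads in the K14 controls, 3395 and 2479 after K14 ablation, 959 and 1118 in the Lrig1 controls and 2697 and 1726 after Lrig1 ablation. The Lrig1 controls were its lowest libraries, as they were for Col7a1, and unlike the other fibroblast collagens. Col5a2, a chain of the type V collagen that lies within type I fibrils, had 80.2 and 120 in the K14 controls, 49.5 and 92.2 after K14 ablation, 506 and 519 in the Lrig1 controls and 450 and 638 after Lrig1 ablation. Every Lrig1 library was above every K14 library for Col5a2. Col6a1, a chain of the beaded filaments, had 132 and 147, then 48.1 and 84.7, then 200 and 238, and 238 and 157 in the same order, lowest in K14 ablation.

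The remaining fibroblast collagens reached at most 131 normalised reads. Col1a1, the main chain of type I collagen, had 12.2 and 18.7 in the K14 controls, 46.0 and 34.3 after K14 ablation, 53.5 and 70.5 in the Lrig1 controls and 44.4 and 93.1 after Lrig1 ablation. Col1a2, its partner chain, had 6.09 and 10.8, then 26.9 and 4.29, then 25.6 and 46.5, and 19.5 and 59.7. For Col1a1 the K14 controls were the lowest libraries, and for Col1a2 the lowest was K14 ablation 2. Col3a1, the type III chain, had 7.11 and 13.8 in the K14 controls, 14.9 and 18.2 after K14 ablation, 45.4 and 74.7 in the Lrig1 controls and 22.2 and 53.3 after Lrig1 ablation, with every Lrig1 library above every K14 library. Col5a1, the other type V chain, had 18.3 and 18.7, then 31.1 and 32.2, then 43.1 and 45.1, and 60.3 and 75.6, so that its 4 groups did not overlap. Col6a2, which joins Col6a1 in the type VI monomer, had 13.2 and 11.8, then 11.3 and 13.9, then 43.1 and 40.9, and 43.5 and 56.5. Its K14 groups overlapped and both lay below the Lrig1 libraries.

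Col6a3, the third main chain of type VI, had 8.12 and 8.86 in the K14 controls, 29.7 and 9.65 after K14 ablation, 15.1 and 28.2 in the Lrig1 controls and 9.76 and 24.7 after Lrig1 ablation. Col14a1, which binds fibril surfaces, had 6.09 and 4.92, then 12.7 and 2.14, then 22.1 and 16.9, and 54.1 and 131. Lrig1 ablation held the highest values of Col14a1, with its 2 libraries far apart, while the Col6a3 groups other than K14 control overlapped each other.

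Among the other collagens Col16a1 (4:130047840-130099283, plus strand) had 816 and 821 normalised reads in the K14 controls, 971 and 947 after K14 ablation, 353 and 412 in the Lrig1 controls and 1019 and 674 after Lrig1 ablation. The Lrig1 controls were the lowest libraries. Col8a1 (16:57624258-57754737, minus strand), a short-chain collagen of sheet-like networks, had 33.5 and 63.0 in the K14 controls, 55.2 and 78.3 after K14 ablation, 262 and 268 in the Lrig1 controls and 327 and 312 after Lrig1 ablation. Every Lrig1 library was above every K14 library. Col23a1, a membrane-spanning collagen, had 104 and 108, then 107 and 151, then 65.2 and 50.7, and 142 and 84.4, with the Lrig1 controls lowest. Col5a3, a further type V chain, had 1.02 and 0 in the K14 controls, 4.25 and 2.14 after K14 ablation, 25.6 and 33.8 in the Lrig1 controls and 6.21 and 11.9 after Lrig1 ablation.

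The other 9 tested members were low. Col20a1 ran from 44.6 to 109 normalised reads, Col11a2 from 14.1 to 67.5, Col10a1 from 15.0 to 43.8 and Col27a1 from 1.02 to 52.5. Col9a3, Col8a2 and Col19a1 reached at most 15.1, 16.7 and 15.2 normalised reads. All 3130 exon bases of Col10a1 lie inside Nt5dc1 on the opposite strand, so its reads are uncertain. Of the last pair, Col4a3 and Col4a4, singled out after their values were seen, Col4a4 had 26.4 and 29.5 in the K14 controls, 14.9 and 40.7 after K14 ablation, 31.4 and 26.8 in the Lrig1 controls and 71.9 and 146 after Lrig1 ablation. Col4a3 had 6.09 and 9.85, then 10.6 and 36.5, then 23.3 and 9.87, and 78.1 and 165. Of its 9967 exon bases 4981 lie inside C430014B12Rik on the opposite strand, and 5.65% overlap exons of that gene. Some Col4a3 reads are therefore uncertain. Col4a3 and Col4a4 were both highest in the Lrig1 ablation libraries, and the short interval printed above lies between them.

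The 2 controls share a labelled genotype, and comparing them sets Lrig1 against K14 libraries without ablation. In Lrig1 control 5 of the 10 fibroblast collagens were higher, as were Col8a1 and Col5a3, and Col12a1, Col16a1 and the anchoring fibril collagen Col7a1 were lower. Col8a1 was 5.66-fold higher, Col5a2 5.18-fold higher and Col3a1 5.41-fold higher, while Col7a1 stood at 0.325 of its K14 level, on the scale of normalised reads plus 1. By limma on log2(normalised read count + 1), with Benjamini-Hochberg adjustment over all 18140 tested genes, 10 of 30 tested collagens passed an adjusted p of 0.05, against 8.79% of all tested genes. Of these 7 were higher (background 6.52%) and 3 lower (background 2.27%).

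Within the fibroblast list 5 of 10 members rose and 1 fell. Col5a2 differed by 2.37 ± 0.33 (log2, SE; adjusted p = 0.00633, limma), Col6a2 by 1.67 ± 0.33 (0.0201), Col3a1 by 2.44 ± 0.52 (0.0271), Col1a1 by 1.95 ± 0.42 (0.0282) and Col5a1 by 1.21 ± 0.28 (0.0349). Col12a1 was the member that fell, by 1.07 on the log2 scale ± 0.24 (adjusted p = 0.0324). Col1a2 at 1.96, Col14a1 at 1.65, Col6a3 at 1.19 and Col6a1 at 0.65 were positive without passing. The median over the 10 was 1.66, beside -0.0049 over all tested genes. Both libraries of Lrig1 control were above both of K14 control for 9 of the 10, against 34.5% of all tested genes.

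Of the epithelial list 1 of 4 members fell and none rose. Col7a1 differed by -1.62 ± 0.21 (log2; adjusted p = 0.00525, limma). Col17a1 at -1.096 ± 0.36 (adjusted p = 0.109), Col4a6 at -0.62 ± 0.20 (0.103) and Col4a5 at -0.54 ± 0.15 (0.0581) did not pass. All 4 genes of the list had both Lrig1 controls below both K14 controls, against 34.4% of all tested genes. The median of the list was -0.86. Of the 3 tested basement membrane collagens none passed, Col18a1 having -0.78, Col4a1 -0.86 and Col4a2 -0.47. Among the others Col8a1 rose by 2.50 ± 0.31 (adjusted p = 0.00482) and Col16a1 fell by 1.101 ± 0.20 (adjusted p = 0.0161). Col5a3 rose by 4.42 ± 0.61 (adjusted p = 0.00658), but with 1 read over both K14 controls against 46 in Lrig1 control its ratio was 58.7, with a 95% counting interval of 10.02 to 2367.

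Over the 30 tested collagens, 13 had both Lrig1 controls above both K14 controls and 12 had both below, against 34.5% and 34.4% of all tested genes. Unadjusted p was below 0.05 for 17 of 30, against 24.4%. The calls rested on all 4 control libraries: 1 collagen (Col8a1) passed without K14 control 1, 2 without K14 control 2 (Col8a1 and Col5a2), and 0 without either Lrig1 control library, where a lone library is assumed to vary like the other groups. When only the 4 control libraries were fitted 21 collagens passed, beside 7269 of all tested genes. Under a stricter low-value filter, which tests fewer members, 6 did, beside 1183 of all genes. The main fit called 1594 of all tested genes, so the collagen count moved along with the count over all genes.

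**Figure D3:**
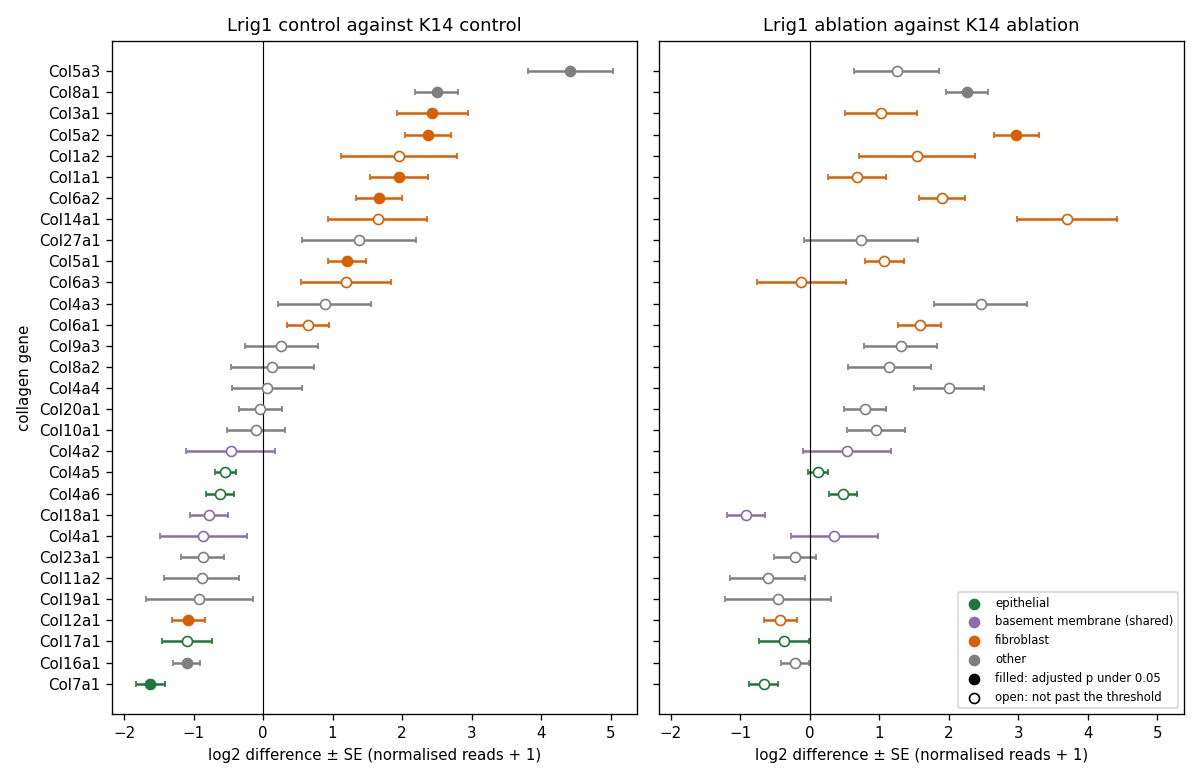
Log2 difference ± SE of each tested collagen between Lrig1 and K14 (normalised reads + 1), among controls on the left and among ablation libraries on the right, with filled points past an adjusted p of 0.05. Among controls 10 of 30 points are filled, with Col5a3 at 4.42 and Col7a1 at -1.62; among ablation libraries Col5a2 at 2.97 and Col8a1 at 2.26 are filled.

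Markers of other cell types moved with the same comparison. Of the 10 fibroblast markers other than collagens, 6 were tested and 4 passed higher in Lrig1 control: Vim at 3.92, Fbn1 at 3.30, Pdgfra at 3.20 and Fbln1 at 0.93 (log2). Thy1, the most abundant of the list in K14 control, went the other way without passing, from 668 and 698 normalised reads to 217 and 207 (log2 -1.68; adjusted p = 0.0577, limma). The summed level of the list was 900 to 955 normalised reads in the K14 controls, 1104 to 1232 after K14 ablation, 1233 to 1469 in the Lrig1 controls and 882 to 1063 after Lrig1 ablation. Mfap5, a marker of dermal fibroblasts, was listed at 0 in all 8 libraries. Of 8 endothelial markers, 5 passed higher in Lrig1 control (Cdh5, Kdr, Emcn, Vwf and Tek), and the list summed to 85.7 to 108 in the K14 controls, 114 to 139 after K14 ablation, 698 to 801 in the Lrig1 controls and 93.2 to 158 after Lrig1 ablation. Of 6 leukocyte markers, 4 passed higher (Ptprc, Lyz2, Csf1r and Cd207), Cd74 was at 1.13 and Cd3e, at -1.66, went the other way, neither passing. That list summed to 215 to 336 in the K14 controls, 272 to 1095 after K14 ablation, 636 to 837 in the Lrig1 controls and 130 to 151 after Lrig1 ablation. Of 8 keratinocyte markers, 2 passed higher (Epcam at 2.45 and Krt15 at 0.82). At an unadjusted p below 0.05 by limma, 3 of the 8 were higher and 3 lower. Cdh1 was among those higher without passing, from 5172 and 5274 normalised reads in K14 control to 7193 and 7935. Those lower, without passing, were Itgb4 at -1.06, Itga6 at -0.995 and Trp63 at -0.50, and the list median was -0.49. Krt5 and Krt14 were lower too, outside that count. Krt5 went from 62722 and 60786 normalised reads in K14 control to 33207 and 37784 in Lrig1 control, and Krt14 from 61325 and 59192 to 41781 and 44253. Of 3 tested mural cell markers Notch3 passed higher at 1.33, from 670 and 684 normalised reads to 1718 and 1693, and the other 2 were negative. Rgs5 and Myh11 of that list were too low to be tested, at no more than 3.05 and 6.21 in any library. Notch3 alone was therefore not read as a measure of mural cells. None of the 2 tested Schwann cell or 5 tested melanocyte markers passed. The part of these cells in the collagen differences was not tested, and in bulk samples fewer cells of a type and less RNA per cell cannot be told apart. In the Lrig1 ablation libraries Vim was at 95.8 and 125 and Cdh5 at 4.44 and 3.18, against 611 and 816 and 93.1 and 113 in Lrig1 control. Of the 6 tested fibroblast markers 4 had a negative difference there and 2, Fbln1 and Dcn, a positive one. Fbln1 was at 595 and 556 after Lrig1 ablation against 276 and 240 in Lrig1 control, and Dcn at 76.3 and 85.2 against 55.9 and 87.4. Col5a2 was at 450 and 638 and Col8a1 at 327 and 312 after Lrig1 ablation. Of the other collagens that passed higher in Lrig1 control, Col5a3 and Col3a1 had lower means after Lrig1 ablation, neither past the threshold. Col5a3 had 6.21 and 11.9 against 25.6 and 33.8, and Col3a1 had 22.2 and 53.3 against 45.4 and 74.7. Col1a1, Col5a1 and Col6a2 went the other way between Lrig1 control and Lrig1 ablation. Their differences were 0.07, 0.60 and 0.24 (log2), none past the threshold.

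**Figure D4:**
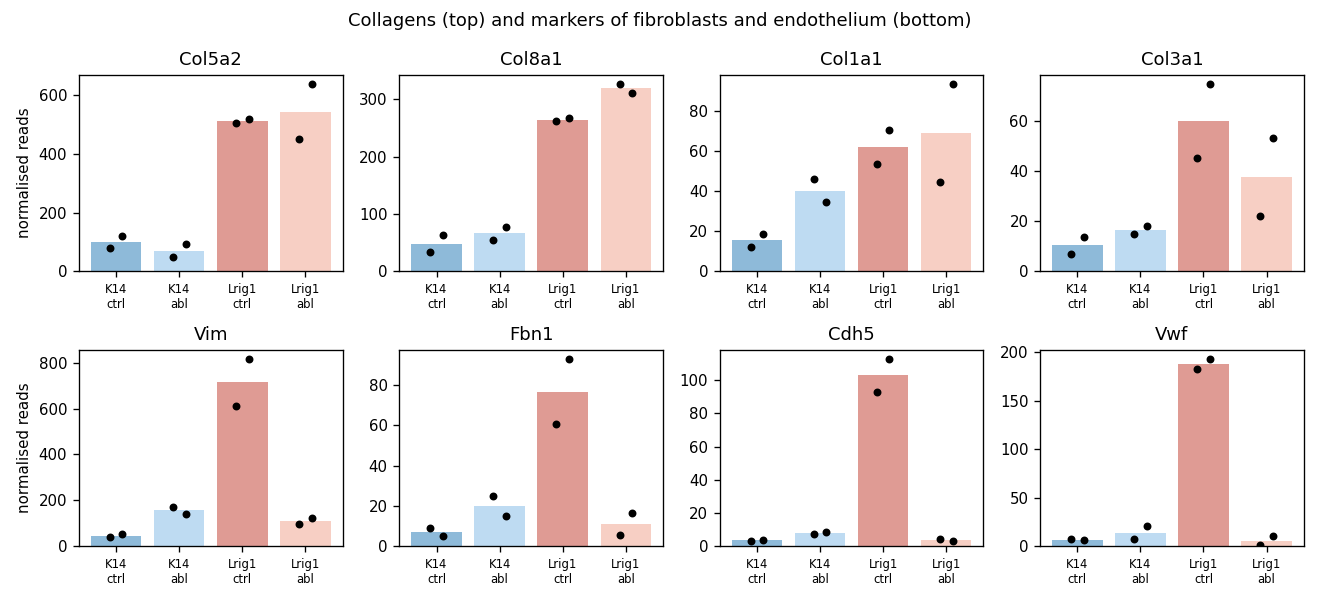
Normalised reads of Col5a2, Col8a1, Col1a1 and Col3a1 (top) and of the fibroblast markers Vim and Fbn1 and the endothelial markers Cdh5 and Vwf (bottom) in the 4 groups, with bars for the mean of 2 libraries and points for the libraries. Between Lrig1 control and Lrig1 ablation Vim goes from 611 and 816 to 95.8 and 125, Col5a2 from 506 and 519 to 450 and 638, and Col3a1 from 45.4 and 74.7 to 22.2 and 53.3. Fbln1 and Dcn, which are not drawn, were the 2 of 6 tested fibroblast markers with a positive difference there.

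The ablation groups allow the same contrast of Lrig1 with K14 after ablation, with other libraries. Col5a2 and Col8a1 were again higher in Lrig1, by 7.83-fold and 4.80-fold. By limma 2 of 30 collagens passed, both higher, against 0.667% of all tested genes (0.463% higher). Col5a2 differed by 2.97 ± 0.33 (adjusted p = 0.0236) and Col8a1 by 2.26 ± 0.31 (adjusted p = 0.029). The fit uses 1 spread per gene for all 4 groups. These SE and p-values therefore also rest on the control libraries, whose pairs stood closer together, and may understate the spread of the ablation groups. The same holds for each comparison that includes an ablation group. Col6a2 at 1.90 ± 0.33 (adjusted p = 0.0504), Col14a1 at 3.70 ± 0.72 (0.0702) and Col6a1 at 1.58 ± 0.31 (0.0719) came next without passing. The fibroblast list had a median of 1.31, beside -0.02 over all tested genes, and 6 of its 10 members had both Lrig1 ablation libraries above both K14 ablation libraries. The epithelial list had a median of -0.12 and none of its members passed, Col7a1 being at -0.67 and Col17a1 at -0.37. Without overlap, 16 of 30 collagens were higher in Lrig1 ablation and 2 lower, against 19.0% and 20.0% of all tested genes.

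DESeq2 on the recovered reads called 7 collagens in this contrast, and a fit of only the 4 ablation libraries called 0. Counts over all genes moved with these settings and with libraries left out, as given in the last section. No collagen passed when any 1 control library was left out, 3 passed without K14 ablation 1, 6 without K14 ablation 2, 14 without Lrig1 ablation 1 and 1 without Lrig1 ablation 2.

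Comparing ablation with control within Lrig1 asks what differed after ablation among the Lrig1 libraries. Col16a1 was 2.17-fold higher in Lrig1 ablation and was the member that passed, at 1.12 ± 0.20 (log2, SE; adjusted p = 0.0247, limma). That is 1 of 30 tested collagens, against 4.06% of all tested genes (0.766% higher). Col12a1 at 1.06 ± 0.24 (adjusted p = 0.0518), Col4a3 at 2.82 ± 0.67 (0.0581), Col7a1 at 0.80 ± 0.21 (0.0755) and Col4a4 at 1.78 ± 0.50 (0.0954) did not pass. The Lrig1 controls used here also enter the comparison of the controls above, where Col16a1, Col12a1 and Col7a1 were lower in them. Of the 30 members 23 had a positive difference, with a median of 0.36 beside -0.02 over all tested genes, and 14 had both ablation libraries above both controls (background 21.4%) against 1 with both below (26.4%).

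All 4 epithelial collagens were positive, from Col4a6 at 0.26 to Col7a1 at 0.80, none of them past the threshold. Col17a1 was at 0.46 ± 0.36, and this sign came from Lrig1 ablation 1: without that library it was -0.16. The fibroblast list had a median of 0.07, with Col14a1 at 2.07 ± 0.72 and Col3a1 at -0.74 ± 0.52, and 0 of its 10 members passed (2 at an unadjusted p below 0.05, against 20.1% of all tested genes). Krt14 also differed between the Lrig1 ablation libraries, at 69896 and 28052 normalised reads, and its part in the spread of Col17a1 was not tested. Endothelial markers moved the other way, with 4 of 8 passing lower, against 598 of all 18140 tested genes. So did Vim at -2.68 and Fbn1 at -2.85, while Fbln1 passed higher at 1.16. Of 6 leukocyte markers 1 passed lower, with a list median of -2.32. Of 3 tested mural cell markers Notch3 passed lower at -1.22 and the other 2 were positive, with a list median of 0.63. None of the 8 keratinocyte, 2 tested Schwann cell or 5 tested melanocyte markers passed. Collagen calls numbered 6 by DESeq2, 3 with a pseudocount of 5, 2 with the stricter filter, and 0 when only the 4 Lrig1 libraries were fitted. Calls over all genes were 997, 855, 672 and 170 in the same order, beside 737 in the main fit. Both counts also changed when any 1 library was left out, and the Col16a1 call was lost without any 1 control library.

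In the same comparison within K14 no collagen passed. By limma 0 of 30 tested collagens passed, against 0.187% of all tested genes, and 0 by edgeR's quasi-likelihood test and by DESeq2. At an unadjusted p below 0.05 there were 8, of which 4 were higher and 4 lower, against 12.8% of all tested genes (6.74% higher and 6.09% lower). Those below were Col4a6 at -0.83 ± 0.20 (adjusted p = 0.185), Col6a1 at -1.11 ± 0.31 (0.229), Col20a1 at -0.88 ± 0.30 (0.309) and Col4a5 at -0.37 ± 0.15 (0.348). Those above were Col1a1 at 1.34 ± 0.42 (adjusted p = 0.272), Col27a1 at 2.29 ± 0.82 (0.321), Col5a1 at 0.74 ± 0.28 (0.331) and Col5a3 at 1.52 ± 0.61 (0.361). Col5a3 rests on 8 reads against 1, a ratio of 6.82 with a 95% counting interval of 0.914 to 303.

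The lists leaned in opposite directions without passing. All 4 epithelial collagens had both K14 ablation libraries below both controls, with a median of -0.32, and 5 of the 10 fibroblast collagens had both above and 1 both below, with a median of 0.41 beside -0.0018 over all tested genes. Of the 6 tested fibroblast markers Fbln1, an extracellular matrix glycoprotein, passed higher at 1.26 (log2; adjusted p = 0.0322, limma). At an unadjusted p below 0.05 there were 4 higher of the 6 fibroblast markers (list median 1.33), 4 higher of the 8 endothelial markers (0.89), 2 higher of the 6 leukocyte markers (1.13, all 6 positive) and none of the 8 keratinocyte markers (0.08). The part of these markers' cells in the collagen values was not tested. Over all 30, 10 were higher without overlap and 9 lower, against 27.4% and 25.7% of all tested genes. Without K14 ablation 2 the count past the threshold was 2, including Col4a6 at -1.14, and it was 1 without either Lrig1 ablation library.

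**Figure D5:**
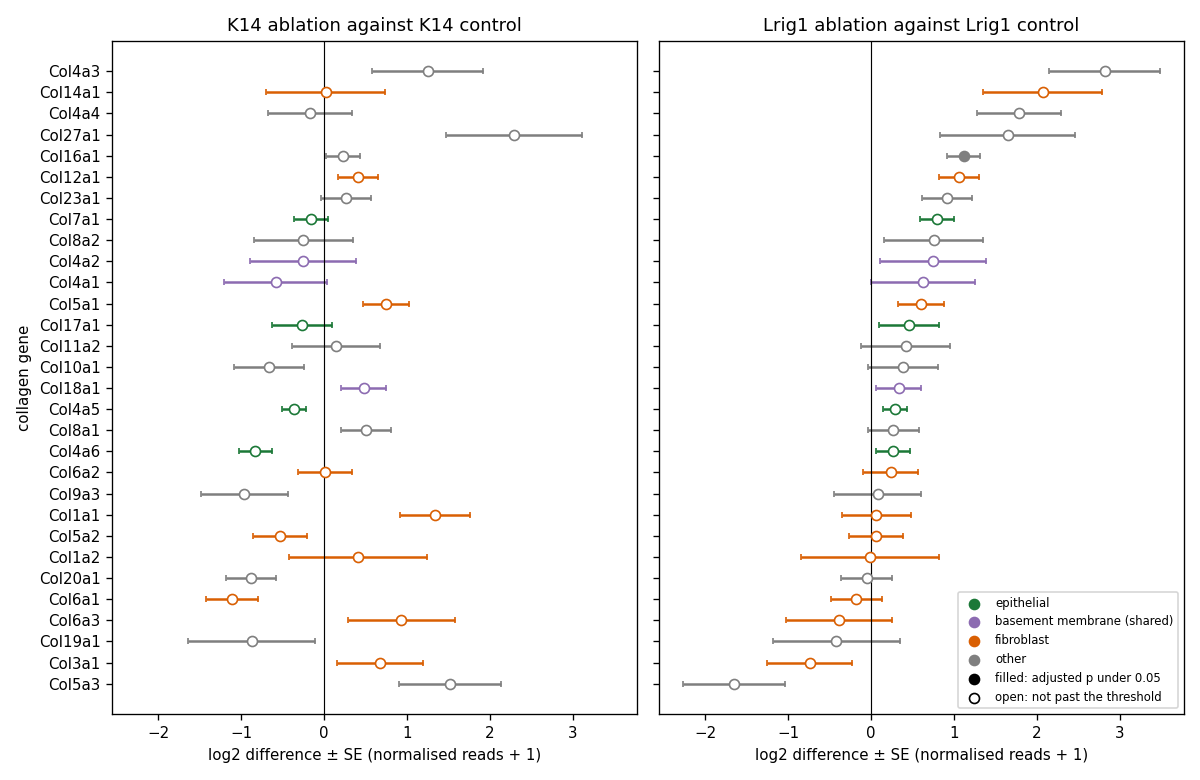
Log2 difference ± SE (normalised reads + 1) of each tested collagen after ablation, within K14 on the left and within Lrig1 on the right, sorted by the Lrig1 value. The single filled point, past an adjusted p of 0.05, is Col16a1 within Lrig1 at 1.12; the 4 epithelial collagens lie below 0 within K14 and above 0 within Lrig1.

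Whether the ablation effects differed between Lrig1 and K14 was tested as an interaction (Lrig1 effect minus K14 effect). None of the 30 collagens passed by limma, against 0.198% of all tested genes, and 0 passed by edgeR or DESeq2. At an unadjusted p below 0.05 there were 6, against 15.0%: Col4a6 at 1.09 ± 0.29 (adjusted p = 0.152), Col5a3 at -3.17 ± 0.87 (0.168), Col7a1 at 0.95 ± 0.29 (0.204), Col4a5 at 0.66 ± 0.21 (0.209), Col16a1 at 0.89 ± 0.28 (0.216) and Col4a4 at 1.95 ± 0.71 (0.264). The epithelial list had a median of 0.84 in this difference and the fibroblast list 0.04, beside -0.03 over all tested genes. With all libraries no member was shown to differ in its ablation effect between Lrig1 and K14, while 2 passed without K14 ablation 2 and 3 without either Lrig1 ablation library. Col7a1 was among these 3 in both cases, at 0.64 without Lrig1 ablation 1 and 1.27 without Lrig1 ablation 2.

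Genes that act on collagens were read from 4 further lists, with 6 of 50 tested genes past the threshold in Lrig1 control against K14 control, against 8.79% of all tested genes called there. Of 21 genes for folding and modification in the endoplasmic reticulum, 1 passed in Lrig1 control against K14 control: Creb3l1, a transcription factor of secretory cells, at 2.61 (log2; adjusted p = 0.0402, limma). P4hb, a subunit of prolyl 4-hydroxylase, and P3h2, a prolyl 3-hydroxylase, had the highest means of that list, P4hb at 1129 to 2330 normalised reads and P3h2 at 753 to 1008. Of 10 tested genes for processing and cross-linking, Tll1, a procollagen C-proteinase, was lower at -1.22 (adjusted p = 0.0442). Of 7 tested receptors, Mrc2, a receptor that takes up collagen, was lower at -1.68 (adjusted p = 0.0486).

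Among the hemidesmosome and anchoring partners, Lama3, a laminin chain of the epidermal basement membrane, was lower in Lrig1 control against K14 control at -1.04 (log2; adjusted p = 0.0202, limma). Nid2, a linker of laminin and type IV collagen, was higher at 2.63 (adjusted p = 0.0337), from 5.08 and 2.95 normalised reads in K14 control to 25.6 and 33.8 in Lrig1 control. In the other 4 comparisons 0 genes of these 4 lists passed by limma; of the 50 tested genes 5 had an unadjusted p below 0.05 in K14 ablation against control (background 12.8%), 17 in Lrig1 ablation against control (20.1%), 9 in Lrig1 ablation against K14 ablation (16.4%) and 7 in the interaction (15.0%).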

How the data were processed

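Epithelial cells of mouse skin epidermis were sorted, their polyA RNA extracted (RNeasy Micro kit) and libraries made with the Ovation Solo system, per the labels' protocols. Trimmomatic, STAR, Picard and HTSeq 0.11.1 were used on GRCm38 (mm10), per the submitters' processing notes; the sources used here give no settings, strand or size-factor program. The deposited table holds a normalised signal: 100% of values are whole multiples of 1 step per library (tolerance 0.001), so reads were recovered. The ablation columns say Exp where the labels say Abl and were matched because no other group was left.

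limma 3.58.1 (R 4.3.3, variance trend) was run on log2(value + 1) in 1 fit of 4 group means (4 residual and 4.13 prior degrees of freedom), with Benjamini-Hochberg adjustment over 18140 genes; this scale understates changes of low genes. It was tested on simulated data in which all libraries had the same spread and only the more abundant genes were changed. That test does not cover the wider spread of the ablation groups or the low genes. edgeR 4.0.16 and DESeq2 1.42.0 on recovered reads were alternatives, with other pseudocounts, filters, TMM scaling, fewer libraries and each library left out. Coordinates and exon lengths are from GENCODE M21 (32443 identifiers matched). Full values are given for every tested epithelial, basement membrane and fibroblast collagen, other collagens past the threshold and the 3 most abundant others; of other lists, genes past the threshold or the 2 highest by mean. Members, lists and tests were chosen with earlier results of these data known. A result for 1 gene of the partner lists is not reported here.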

Additional observations from a re-analysis of the deposited data

How the results depend on the processing

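The count of 33 detected collagens was the same with any 1 library left out. With 1 library left out in turn, collagens past the threshold ranged from 0 to 14 in Lrig1 control against K14 control (10 with all libraries), 0 to 14 in Lrig1 ablation against K14 ablation (2), 0 to 6 in Lrig1 ablation against control (1), 0 to 2 in K14 ablation against control (0) and 0 to 3 in the interaction (0). All genes past the threshold ranged from 1 to 3539, 0 to 4041, 5 to 2498, 0 to 740 and 0 to 2022 in the same order (main counts 1594, 121, 737, 34 and 36). With only the compared libraries these were 7269, 0, 170 and 0 for the 4 two-group comparisons, and collagens were 21, 0, 0 and 0. DESeq2 called 666 genes in Lrig1 ablation against K14 ablation, 221 in K14 ablation and 303 in the interaction, and 7 collagens in the first and 6 in Lrig1 ablation against control. The stricter filter gave 6 collagens between controls, 2 in the Lrig1 ablation effect, and 72 genes between ablation groups and 2 in the interaction. No filter gave 75 and 5 genes there, and a pseudocount of 5 gave 83 genes in the interaction and 3 collagens in the Lrig1 ablation effect. The causes were not tested.

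Same-numbered libraries share only a number (correlations of their deviations -0.05 to 0.08). With the number as a replicate block, collagen calls between controls were 9, Col5a1 being lost, and other collagen counts did not move; genes were 21 in K14 ablation and 1 in the interaction. With 1 library left out the Col17a1 difference ranged from -0.16 (without Lrig1 ablation 1) to 1.08 in Lrig1 ablation against control, and from -0.99 to 0.25 (without Lrig1 ablation 2) between ablation groups. The fibroblast share of collagen reads was 6.28, 8.93, 10.3 and 11.8% in the K14 controls, after K14 ablation, in the Lrig1 controls and after Lrig1 ablation. Per kb it was 3.24, 4.37, 6.81 and 7.16%, and without Col17a1 21.9, 26.2, 31.2 and 32.3%. All these shares include Col12a1. With Col12a1 taken from the list, the K14 libraries gave 0.721 and 0.879% in control and 0.737 and 0.827% after ablation. The Lrig1 libraries then gave 5.01 and 5.22% in control and 2.36 and 6.18% after ablation. TMM scaling moved the median of all genes by less than 0.1 and kept the calls named above.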
